A study of Mus musculus with 12 samples.

Results

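The genes described here encode 4 RNA-binding proteins that shorten the life of messenger RNA: Zfp36 (tristetraprolin), its relatives Zfp36l1 and Zfp36l2, and Zc3h12a (Regnase-1). Their members were all probe sets that carry 1 of these gene symbols and no other on an Affymetrix mouse genome array, a microarray that reads each transcript through sets of short probes. That gave 8 probe sets for 4 genes, out of 45037 non-control probe sets: 1 for Zfp36, 2 each for Zfp36l1 and Zc3h12a, and 3 for Zfp36l2. All 8 passed the filter on low signals, which 27086 probe sets passed.

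Mouse embryonic fibroblasts came from animals with kinase-dead IRAK4 or from wild-type animals. IRAK4 is a kinase that MyD88, the adaptor of the interleukin-1 receptor, recruits once that receptor is active. Kinase-dead cells were grown for 4 h without stimulation, or for 1 h or 4 h with 1 ng/ml of the inflammatory cytokine interleukin-1 beta, called IL-1b here. Wild-type cells were grown under the same 3 conditions. Every group had 2 arrays, which makes 12 over the 6 groups, and the cells were cultured in medium with foetal calf serum. No group had unstimulated cells grown for 1 h, so each 1 h comparison also differs in culture time, and both stimulated times of a genotype share the same unstimulated arrays. The title of wild-type unstimulated replicate 1 gives no genotype, and the array was placed by the series design. The design text speaks of biological replicates but does not name the animals or cultures behind them. The p-values therefore measure only how far these arrays spread. The loss of kinase activity itself is not something a transcript level checks.

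Proteins of the Zfp36 family hold a pair of CCCH zinc fingers that bind AU-rich elements, short sequences near the end of many cytokine and growth-factor transcripts. Once bound, they bring in the CCR4-NOT complex, which removes the poly(A) tail, and the transcript is then degraded. Zc3h12a works in another way: it is an endoribonuclease that cuts stem-loops in inflammatory transcripts such as Il6. In cells responding to IL-1b or bacterial products these genes are known as feedback brakes, because the stimulus that induces cytokine transcripts also induces or modifies the proteins that remove them.

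Values are MAS5 signals, a linear measure of probe brightness that the authors scaled to the same trimmed mean of 150 on each array. Differences and standard errors (SE) are on the scale of log2(signal + 8), which understates changes at low signals. A difference was called when its adjusted p was under 0.05 in limma with Benjamini-Hochberg adjustment over all 27086 probe sets. Array medians lay between 23 and 28.4 signal units. Correlations of log2 signals were 0.973 to 0.979 within groups and 0.928 to 0.976 between groups. All 10 fibroblast markers passed the filter, with summed signals of 28405 to 34278 over the 12 arrays. Some dimmer ones varied more than this sum, as Lum (56.9 to 609.7) and Pdgfra (118.2 to 810.9), while Dcn ran from 288.2 to 420.4. Macrophage markers summed to 500.4 to 579.9 in kinase-dead arrays, against 213.3 to 291.1 in wild-type arrays. Of these 10 markers 8 passed the filter, Itgam was under the filter's 25.5 units on all 12 arrays and Cd14 reached it on 1. The brightest of them was Lyz2, at 96.7 to 319.1. The 6 neural and glial markers summed to 569.9 to 665.2 in kinase-dead arrays, against 202.6 to 344.1 in wild-type arrays. Of the 6 endothelial and 6 epithelial markers, 2 and 3 passed. The ratio of actin signal at the 3' end to that at the 5' end, which reflects RNA integrity, averaged 2.85 ± 0.0177 in kinase-dead cells without stimulation (SD, n = 2). Group means elsewhere were 2.36 to 2.49. The same ratio for Gapdh averaged 1.528, 1.668 and 1.435 in kinase-dead cells without stimulation, at 1 h and at 4 h. In wild-type cells it averaged 1.428, 1.464 and 1.332, and the genotypes did not overlap at 1 h or 4 h. These values move with genotype, and their part in the genotype differences below was not tested. In RNA from whole cultures, fewer cells that express a gene and less RNA per cell cannot be told apart.

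Zfp36 and Zc3h12a were the members with a called difference between the genotypes in the IL-1b response, each with its own timing. In wild-type cells the mean signal of Zfp36 was 185.4 without stimulation, 1913.1 at 1 h and 228.4 at 4 h. That of Zc3h12a was 25, 265.4 and 1232.9, higher at 4 h than at 1 h. Zfp36l1 was 1.6-fold higher at 1 h in wild-type cells. Zfp36l2, by its brightest probe set, did not pass the test for a response to IL-1b but was lower in kinase-dead cells in all 3 conditions. That genotype difference was not called at its dimmer probe sets, whose estimates in unstimulated cells had the opposite sign.

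**Figure D1:**
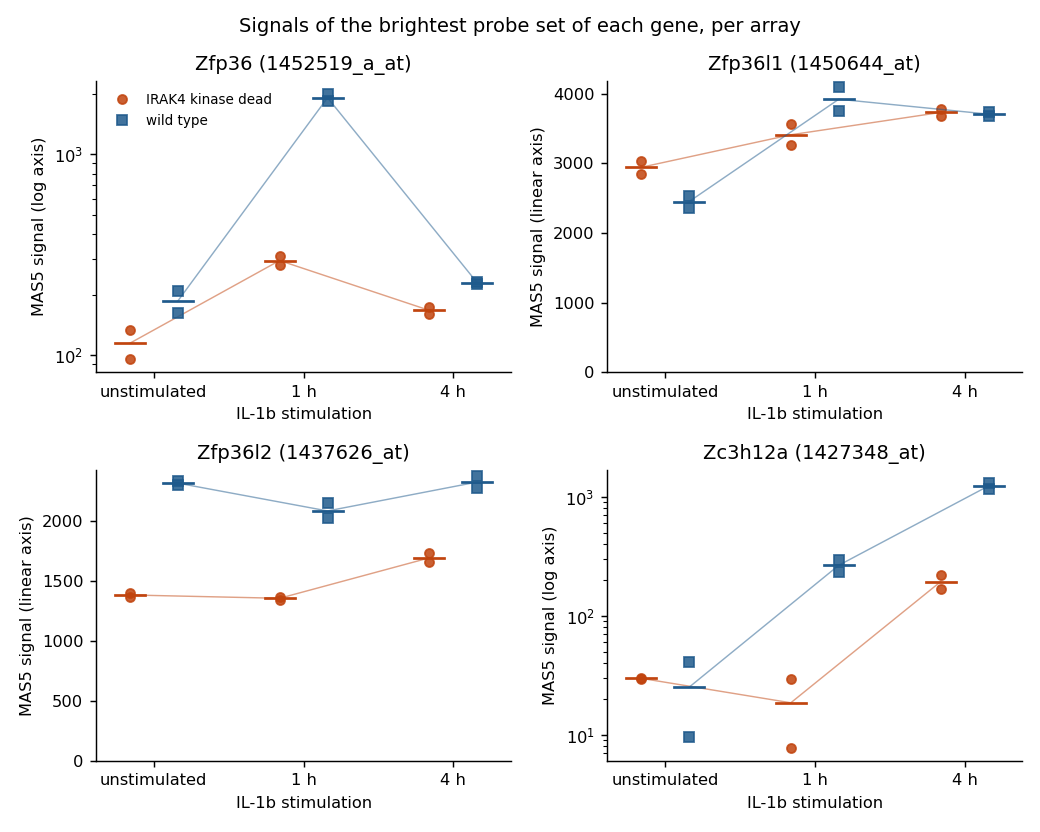
MAS5 signal of the brightest probe set of each gene in each of the 12 arrays, by IL-1b condition (unstimulated, 1 h, 4 h), with kinase-dead arrays left of wild-type arrays and a bar at each group mean. The axis is logarithmic for Zfp36 and Zc3h12a and linear for Zfp36l1 and Zfp36l2. Zfp36 was highest in wild-type cells at 1 h (mean 1913.1), Zc3h12a in wild-type cells at 4 h (mean 1232.9), and Zfp36l2 was lower in every kinase-dead array than in every wild-type array.

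In kinase-dead cells at 1 h, 1 of the 8 member probe sets was called, higher, where 2.35% of all probe sets were called. At 4 h in these cells 2 of 8 were called, both higher, where 0.406% of all probe sets were. Between 4 h and 1 h in kinase-dead cells 3 of 8 were called, 2 higher and 1 lower at 4 h, where 2.7% of all probe sets were. In wild-type cells 4 of 8 were called at 1 h, all higher, where 6.65% of all probe sets were. At 4 h in wild-type cells 2 of 8 were called, both higher, where 7.52% were. Between 4 h and 1 h in wild-type cells 2 of 8 were called, 1 in each direction, where 14.7% were. Comparing kinase-dead with wild-type cells, 3 of 8 were called in unstimulated cells, where 10.8% of all probe sets were. Of these 1 was higher and 2 were lower in kinase-dead cells. At 1 h the genotypes differed in 3 of 8, all lower in kinase-dead cells, where 10.5% of all probe sets were called. At 4 h they differed in 2 of 8, both lower, where 16.7% were. The difference between the responses of the genotypes was called for 2 of 8 at 1 h, where 0.366% of all probe sets were, and for 1 of 8 at 4 h, where 1.73% were. All 3 were smaller responses in kinase-dead cells.

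Zfp36 encodes tristetraprolin, an immediate early gene whose loss in mice leads to excess tumour necrosis factor and inflammation. In kinase-dead cells its signal (probe set 1452519_a_at) was 95.6 and 133 without stimulation, 279.7 and 311.1 at 1 h, and 160.4 and 173 at 4 h. In wild-type cells it was 162.4 and 208.4 without stimulation, 1990.4 and 1835.8 at 1 h, and 226.5 and 230.3 at 4 h. Every array at 1 h stood above all other arrays of its genotype, and the kinase-dead and wild-type arrays did not overlap in any condition. At 1 h Zfp36 rose by 1.33 ± 0.157 (SE) in kinase-dead cells (limma adjusted p = 0.000176). The rise in wild-type cells was 3.32 ± 0.157 (limma adjusted p = 2.246e-10). As ratios of mean signals these were 2.58-fold in kinase-dead and 10.3-fold in wild-type cells. The gain in mean signal was 181.1 units in kinase-dead cells, 10.5% of the 1727.7 units gained in wild-type cells. The kinase-dead response at 1 h was the smaller one, with a difference of the responses of -1.996 ± 0.222 on the log2 scale (limma adjusted p = 9.483e-05). Over the 22 alternative settings this adjusted p ranged from 1.153e-05 to 0.0333.

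The return of Zfp36 between 1 h and 4 h was a difference of -3.02 ± 0.157 in wild-type cells (limma adjusted p = 2.63e-09). In kinase-dead cells the difference was -0.80 ± 0.157 (limma adjusted p = 0.0105). That call did not hold without kinase-dead 1 h replicate 1 (adjusted p = 0.0594) or 2 (0.109), or without kinase-dead 4 h replicate 1 (0.0963) or 2 (0.0701). At 4 h the difference from unstimulated cells was 0.53 ± 0.157 in kinase-dead cells (limma adjusted p = 0.179) and 0.30 ± 0.157 in wild-type cells (limma adjusted p = 0.285), neither of them called. The responses at 4 h differed by 0.23 (95% confidence interval -0.24 to 0.70, not adjusted over probe sets; limma adjusted p = 0.687).

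Zfp36 already differed between the genotypes before stimulation. Its mean signal was 114.3 ± 26.5 in unstimulated kinase-dead cells and 185.4 ± 32.5 in unstimulated wild-type cells (SD, n = 2), a log2 difference of -0.67 ± 0.157 (limma adjusted p = 0.00967). Without wild-type unstimulated replicate 2 the difference was -0.50 (adjusted p = 0.0973), and without kinase-dead unstimulated replicate 1 it was -0.45 (adjusted p = 0.150), so the call rested on both. At 1 h Zfp36 was lower in kinase-dead cells (difference -2.66 ± 0.157, limma adjusted p = 2.476e-09), with a mean signal 0.154 times that of wild-type cells. At 4 h the means were 166.7 ± 8.91 in kinase-dead cells and 228.4 ± 2.69 in wild-type cells (SD, n = 2), a difference of -0.44 (limma adjusted p = 0.0676). That difference was called in 8 of the alternatives, among them median centring of each array (-0.53, adjusted p = 0.0242) and the fits without wild-type unstimulated replicate 1 (0.0385) or 2 (0.0393) or kinase-dead unstimulated replicate 1 (0.0417) or 2 (0.0430).

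Ordered by mean log2 signal, the 6 groups for Zfp36 ran from wild type 1 h through kinase dead 1 h, wild type 4 h, wild type unstimulated and kinase dead 4 h to kinase dead unstimulated. Only the first step, from wild type 1 h to kinase dead 1 h, was called between neighbours, at 2.66 ± 0.157 (limma adjusted p = 2.476e-09). The 1 h level in kinase-dead cells and the 4 h level in wild-type cells differed by 0.36 (limma adjusted p = 0.110).

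Zc3h12a encodes Regnase-1, which the IKK kinases mark for destruction after stimulation of the interleukin-1 receptor and which the protease Malt1 can cut in lymphocytes. In kinase-dead cells the brighter of its probe sets (1427348_at) read 30 and 29.6 without stimulation, 7.8 and 29.3 at 1 h, and 219.2 and 167.4 at 4 h. In wild-type cells it read 40.5 and 9.5 without stimulation, 234.2 and 296.6 at 1 h, and 1160.6 and 1305.2 at 4 h. The unstimulated arrays of both genotypes and the kinase-dead 1 h arrays all read low, 2 of them below the 25.5 units of the filter, and all other groups stood above them. Within kinase-dead cells both 1 h arrays lay below the unstimulated ones, replicate 1 far below at 7.8 and replicate 2, at 29.3, close to 29.6. The unstimulated arrays of the genotypes overlapped.

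In wild-type cells Zc3h12a rose by 3.22 ± 0.378 (SE) at 1 h (limma adjusted p = 3.567e-05) and by 5.41 ± 0.378 at 4 h (limma adjusted p = 3.814e-08). The step between 4 h and 1 h was 2.19 ± 0.378 (limma adjusted p = 0.000679). Mean signals were 10.6-fold those of unstimulated wild-type cells at 1 h and 49.3-fold at 4 h, although the unstimulated replicates, at 40.5 and 9.5, make the base of these ratios imprecise.

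In kinase-dead cells the 1 h difference was -0.64 ± 0.378 (limma adjusted p = 0.459), so no rise was detected at 1 h. At 4 h Zc3h12a was higher by 2.40 ± 0.378 (limma adjusted p = 0.00530), a 6.49-fold ratio of mean signals and 13.5% of the gain in wild-type cells. This call was lost without kinase-dead unstimulated replicate 1 (2.41, adjusted p = 0.0575) or 2 (2.39, adjusted p = 0.0606), and without kinase-dead 4 h replicate 1 (2.21, adjusted p = 0.112). The difference between 4 h and 1 h in kinase-dead cells, 3.04 ± 0.378 (limma adjusted p = 0.000209), was called whichever single array was left out.

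The response of Zc3h12a was smaller in kinase-dead cells at 1 h (difference of the responses -3.86 ± 0.535, limma adjusted p = 0.00124) and at 4 h (-3.01 ± 0.535, limma adjusted p = 0.00519). Both held without any single array. Neither was called when the variance was fitted without a trend on mean signal (adjusted p = 0.143 at 1 h and 0.135 at 4 h). Compared at the same time, kinase-dead cells had a mean signal of 18.6 ± 15.2 at 1 h, against 265.4 ± 44.1 in wild-type cells (SD, n = 2), a log2 difference of -3.48 (limma adjusted p = 5.027e-06). At 4 h the means were 193.3 ± 36.6 in kinase-dead and 1232.9 ± 102.2 in wild-type cells (SD, n = 2), a difference of -2.63 (limma adjusted p = 7.548e-05). The 4 h level in kinase-dead cells and the 1 h level in wild-type cells were neighbours in the order of levels and differed by 0.44 ± 0.378 between wild type and kinase dead (limma adjusted p = 0.519). Without stimulation the means were 29.8 ± 0.283 in kinase-dead cells and 25 ± 21.9 in wild-type cells (SD, n = 2), with a difference of 0.38 (limma adjusted p = 0.600). Without wild-type unstimulated replicate 1 that difference was 1.11 (adjusted p = 0.0468).

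The dimmer probe set of Zc3h12a, 1443993_at, did not exceed 41.1 units on any array. It reached 25.5 units on 4 of the 12 arrays, the wild-type arrays at 1 h (29.4 and 25.6) and at 4 h (32.4 and 41.1), and was called by limma in none of the 11 comparisons, with no unadjusted p under 0.05. Its wild-type difference at 4 h was 0.53 ± 0.346 (limma unadjusted p = 0.144).

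**Figure D2:**
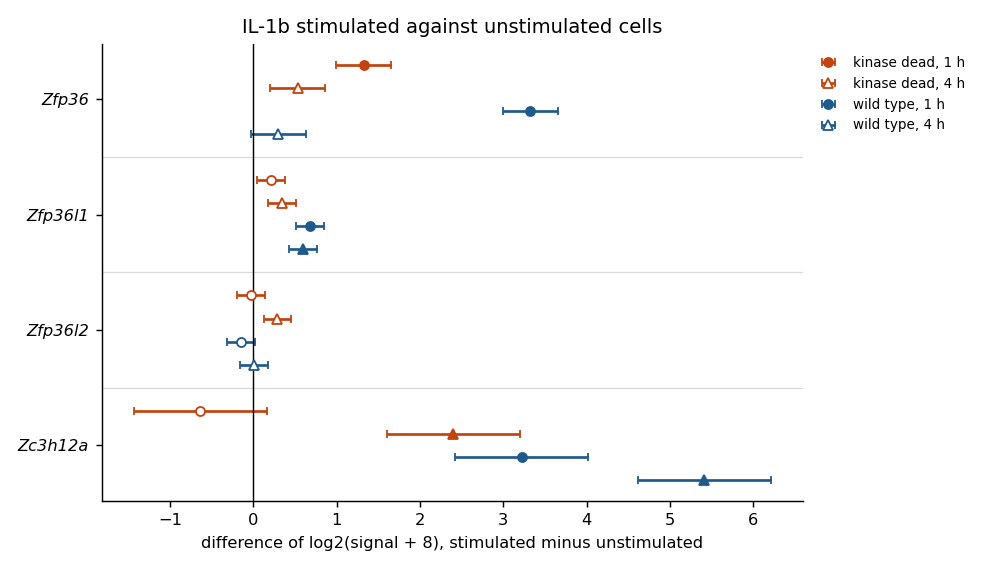
Differences in log2(signal + 8) between IL-1b and unstimulated cells for the brightest probe set of each gene, at 1 h and 4 h in kinase-dead and in wild-type cells. Filled symbols were called by limma at an adjusted p under 0.05, and bars are 95% confidence intervals. The wild-type value for Zfp36 was 3.32 at 1 h and 0.30 at 4 h, while that for Zc3h12a was 3.22 at 1 h and 5.41 at 4 h.

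The 250 bases upstream of the RefSeq start of Zfp36 and of Zc3h12a are given here because these are the members with a called difference in response between the genotypes. Both genes lie on the minus strand of the mouse assembly GRCm38.p6, and the sequences are written 5′ to 3′ on the gene's strand. Capitals mark matches to the motifs searched on both strands.
Zfp36: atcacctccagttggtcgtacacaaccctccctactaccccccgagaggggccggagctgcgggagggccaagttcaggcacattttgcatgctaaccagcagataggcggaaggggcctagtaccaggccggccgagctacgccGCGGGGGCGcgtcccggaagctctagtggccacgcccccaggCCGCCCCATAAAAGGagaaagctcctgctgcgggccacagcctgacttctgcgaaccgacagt
Zc3h12a: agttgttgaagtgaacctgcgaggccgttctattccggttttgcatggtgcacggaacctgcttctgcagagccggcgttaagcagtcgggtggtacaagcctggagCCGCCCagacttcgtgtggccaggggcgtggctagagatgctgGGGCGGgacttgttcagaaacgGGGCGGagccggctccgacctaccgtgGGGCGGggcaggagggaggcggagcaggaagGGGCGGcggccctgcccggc
The Zfp36 window is chr7:28379229-28379478 and the Zc3h12a window is chr4:125127882-125128131. The motifs were the AP-1 site TGANTCA, the TGACG core of the cAMP response element, the EGR site GCGNGGGCG, the GC box GGGCGG, the TATA box TATAAA, the NF-kB consensus and the CArG box, which serum response factor binds. In the Zfp36 window a CArG box match, CCATAAAAGG, lay at positions -58 to -49 from the start. This motif occurs in 1.47% of 32851 promoter windows of this length. A GC box at -63 to -58 overlapped it by 1 base, and an EGR match stood at -105 to -97. The Zc3h12a window held 5 GC boxes between -143 and -15. EGR sites occur in 4.7% and GC boxes in 32.7% of the promoter windows. The Zfp36l1 window, chr12:80113014-80113263 on the minus strand, held an AP-1 match at -129 to -123 and a TATA box at -29 to -24. Those motifs occur in 6.75% and 12.4% of the windows. The TGACG core, present in 17.8% of windows, and the NF-kB consensus, present in 7.25%, had no match in the windows of these 3 genes. The matches describe letters in these windows and were not tested for binding.

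Zfp36l1 binds the same AU-rich elements as Zfp36, and its loss in mice is lethal before birth with defects of blood vessel growth. In kinase-dead cells its brighter probe set (1450644_at) read 3039.3 and 2848.4 without stimulation, 3564.5 and 3259.6 at 1 h, and 3782.4 and 3684.4 at 4 h. In wild-type cells it read 2360.8 and 2538.9 without stimulation, 4098 and 3748.2 at 1 h, and 3684.2 and 3733.3 at 4 h. Stimulated arrays stood above unstimulated arrays in both genotypes, and the genotypes did not overlap in unstimulated cells. In wild-type cells Zfp36l1 rose by 0.68 ± 0.0785 (SE) at 1 h (limma adjusted p = 3.138e-05) and by 0.60 ± 0.0785 at 4 h (limma adjusted p = 7.1e-05), and the times did not differ past the threshold (-0.08, limma adjusted p = 0.569). In kinase-dead cells the differences were 0.21 ± 0.0785 at 1 h (limma adjusted p = 0.183) and 0.34 ± 0.0785 at 4 h (limma adjusted p = 0.0722). The 4 h difference was called without wild-type unstimulated replicate 1 (adjusted p = 0.0162) or 2 (0.0166).

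The responses of Zfp36l1 were not shown to differ between genotypes. The difference of responses was -0.47 ± 0.111 at 1 h (limma adjusted p = 0.113), and without wild-type unstimulated replicate 2 it was -0.52 (adjusted p = 0.0388). At 4 h it was -0.26 ± 0.111 (limma adjusted p = 0.305). Unstimulated kinase-dead cells had a mean of 2943.9 ± 135 units, against 2449.9 ± 125.9 in wild-type cells (SD, n = 2), higher by 0.26 ± 0.0785 (limma adjusted p = 0.0383). That call was lost in 7 of the 12 fits that left out 1 array. It held in 10 of the 22 alternatives, over which the difference ran from 0.21 to 0.32. The arrays whose absence ended it were both kinase-dead unstimulated and both kinase-dead 4 h arrays, kinase-dead 1 h replicate 1, wild-type unstimulated replicate 1 and wild-type 1 h replicate 1. At 1 h the genotype difference was -0.20 (limma adjusted p = 0.127) and at 4 h it was 0.01 (limma adjusted p = 0.958). The dimmer probe set of this gene had genotype differences of -0.23 in unstimulated cells, -0.44 at 1 h and 0.18 at 4 h, none called. Its differences of responses were -0.20 at 1 h and 0.41 at 4 h, neither called. In unstimulated cells its sign was thus opposite to that of the brighter probe set.

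The dimmer probe set of Zfp36l1, 1422528_a_at, read 50.9 and 57.7 in unstimulated kinase-dead cells, 106.7 and 89.5 at 1 h, and 125.8 and 121.2 at 4 h. In wild-type cells it read 52 and 81.2 without stimulation, 136 and 134.1 at 1 h, and 94.4 and 124.1 at 4 h. Stimulated arrays again lay above unstimulated arrays in each genotype. At 4 h it was higher by 1.08 in kinase-dead cells (limma adjusted p = 0.0319), a call lost in 8 of the 12 fits without 1 array (adjusted p up to 0.211). Those arrays were all 6 kinase-dead arrays and both wild-type 1 h arrays. At 1 h it was higher by 0.97 ± 0.209 in wild-type cells (limma adjusted p = 0.00874), a call lost without wild-type unstimulated replicate 1 (0.68, adjusted p = 0.0905) or wild-type 1 h replicate 1 (0.0607) or 2 (0.0622). The kinase-dead value at 1 h was 0.77 (limma adjusted p = 0.0657) and the wild-type value at 4 h was 0.67 (limma adjusted p = 0.0618), neither of them called. The kinase-dead 1 h value was called without wild-type unstimulated replicate 1 (0.0277) or 2 (0.0296), and the wild-type 4 h value without wild-type unstimulated replicate 2 (0.95, adjusted p = 0.0151).

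Zfp36l2 is the family member known for its part in blood cell formation and in oocyte maturation. In kinase-dead cells its brightest probe set (1437626_at) read 1402.1 and 1367.2 without stimulation, 1343.8 and 1370 at 1 h, and 1732.4 and 1657 at 4 h. In wild-type cells it read 2298.7 and 2338.5 without stimulation, 2148.5 and 2023.9 at 1 h, and 2276.9 and 2378.6 at 4 h. All 6 kinase-dead arrays, at most 1732.4, stood below all 6 wild-type arrays, at least 2023.9. The genotype difference was -0.74 ± 0.0793 (SE) in unstimulated cells (limma adjusted p = 5.385e-06), -0.62 at 1 h (limma adjusted p = 3.349e-05) and -0.46 at 4 h (limma adjusted p = 0.000500). Mean signals in kinase-dead cells were 0.597, 0.650 and 0.728 times those of wild-type cells in these conditions. Each of these 3 differences was called under all 22 alternatives, including each fit without 1 array.

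The response of Zfp36l2 to IL-1b did not pass the test in either genotype. In kinase-dead cells the differences were -0.03 ± 0.0793 at 1 h (limma adjusted p = 0.915) and 0.29 ± 0.0793 at 4 h (limma adjusted p = 0.140). The 4 h difference was called without wild-type unstimulated replicate 1 (adjusted p = 0.0494) or 2 (0.0499). In wild-type cells the differences were -0.15 at 1 h (limma adjusted p = 0.300) and 0.01 at 4 h (limma adjusted p = 0.980). Between 4 h and 1 h in kinase-dead cells the difference was 0.32 (limma adjusted p = 0.0401). That call was lost in 8 fits without 1 array (adjusted p up to 0.243), those without any of the 6 kinase-dead arrays or either wild-type 1 h array. The difference between the genotypes' responses was 0.12 at 1 h (95% confidence interval -0.11 to 0.36, limma adjusted p = 0.825) and 0.28 at 4 h (0.05 to 0.52, limma adjusted p = 0.250), with intervals not adjusted over probe sets.

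The other 2 probe sets of Zfp36l2 showed no called difference by limma in any of the 11 comparisons. 1439054_at lay between 59.9 and 141.7 units over the 12 arrays, and the difference with its smallest p, between 4 h and 1 h in kinase-dead cells, was 0.62 ± 0.263 (limma unadjusted p = 0.0307, adjusted p = 0.245). 1451034_at lay between 3.6 and 44.6 units and reached 25.5 units on 8 arrays, with no comparison under an unadjusted p of 0.05. The genotype difference at the brightest probe set was not called at these dimmer ones, whose standard errors were 0.263 and 0.570 against 0.0793.

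**Figure D3:**
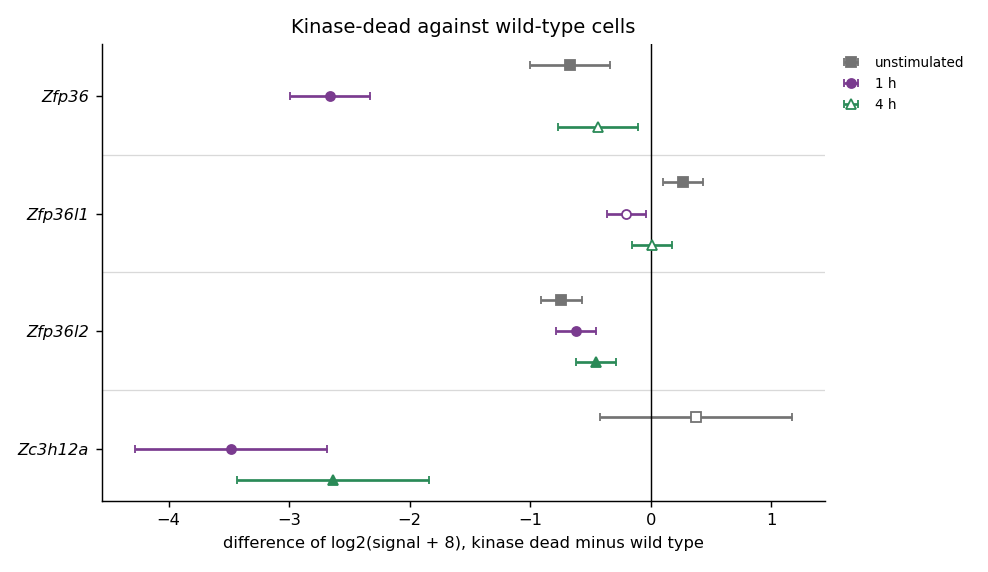
Differences in log2(signal + 8) between kinase-dead and wild-type cells in each condition for the brightest probe set of each gene. Filled symbols were called by limma at an adjusted p under 0.05, and bars are 95% confidence intervals. Zfp36l2 was lower in kinase-dead cells in all 3 conditions (-0.74, -0.62 and -0.46), while the differences of Zfp36 and Zc3h12a were -2.66 and -3.48 at 1 h.

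**Figure D4:**
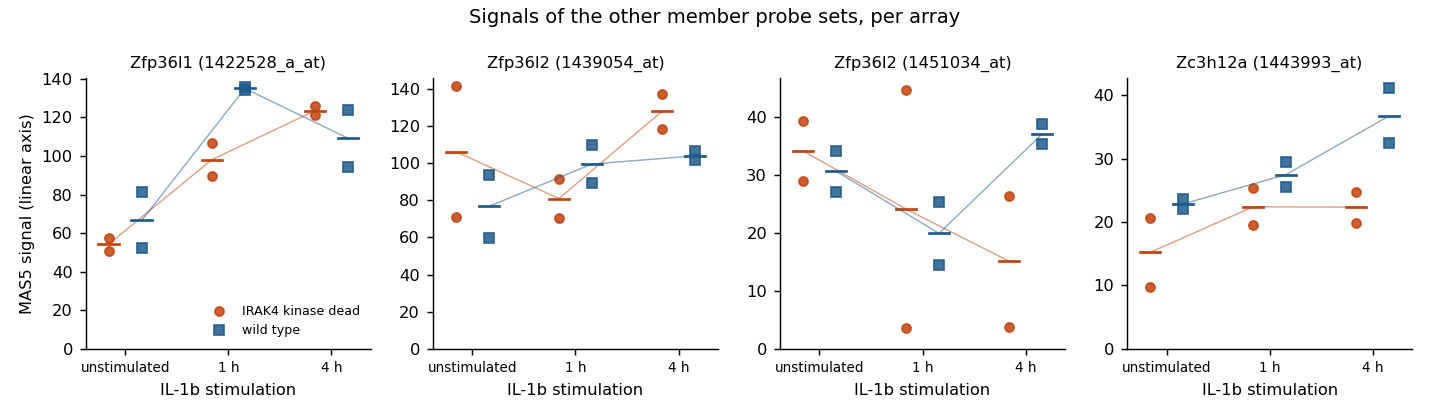
MAS5 signals of the other 4 member probe sets in each of the 12 arrays, by IL-1b condition, with kinase-dead arrays left of wild-type arrays and a bar at each group mean (linear axes). 1422528_a_at of Zfp36l1 was the only one of these with called differences, and 1443993_at of Zc3h12a reached 25.5 units only on the 4 stimulated wild-type arrays.

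The members did not share one pattern over the 12 arrays. Pearson correlations of log2(signal + 8) between their brightest probe sets were 0.51 for Zfp36 with Zfp36l1, 0.30 for Zfp36 with Zfp36l2 and 0.29 for Zfp36 with Zc3h12a. Zc3h12a had a correlation of 0.64 with Zfp36l1 and 0.55 with Zfp36l2, and Zfp36l1 with Zfp36l2 had -0.02. All these points share 12 arrays in 6 groups, so the values describe group patterns. Among 12426 other genes, those most like Zfp36 were Csrnp1 (r = 0.982), Atf3 (0.975), Csgalnact1 (0.965), Junb (0.960) and Btg2 (0.946). Atf3 and Junb encode bZIP transcription factors of early stress and growth responses. Those most like Zc3h12a were Stx11 (0.974), Nfkbie (0.950), Rnd1 (0.945), Ccl20 (0.942) and Relb (0.940). Nfkbie encodes an inhibitor of NF-kB, Relb a subunit of NF-kB and Ccl20 a chemokine. Zfp36l1 was most like Cep170 (0.910), Map3k8 (0.879), Sh3rf3 (0.876), Chmp5 (0.863) and Robo1 (0.834). Map3k8 encodes the kinase Tpl2. Zfp36l2 was most like Lipg (0.975), Ppp3r1 (0.972), Cav1 (0.966), Ugdh (0.966) and Acsl4 (0.964), among which Cav1 encodes the membrane protein caveolin-1.

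Among transcripts that the Zfp36 family is known to bind, several rose with the stimulus in each genotype. Of 16 listed AU-rich element targets 12 were tested. Tnf, Il6, Csf2 and Cxcl2, 4 of the 12, reached the filter only on stimulated arrays. The filter thus favoured a difference from unstimulated cells, and the counts are a description. At 1 h 6 were called in kinase-dead cells (median log2 difference 0.65), where 2.35% of all probe sets were, and 9 in wild-type cells (median 2.17), where 6.65% were, all higher. At 4 h 5 were called in kinase-dead cells (median 1.10), where 0.406% of all probe sets were, and 9 in wild-type cells (median 2.71), where 7.52% were, all higher. The medians of all probe sets lay between -0.08 and 0.01 in these comparisons. At 1 h the response of 5 of the 12 was called smaller in kinase-dead cells, where 0.366% of all probe sets were called. At 4 h 5 responses were called smaller, where 1.73% of all probe sets were called. Tnf, Il6 and Csf2 reached the filter only on stimulated wild-type arrays, which favoured a smaller kinase-dead response, so these counts too are a description. Leaving out 1 array, the count at 1 h in kinase-dead cells ranged from 3 to 6 and the count at 4 h from 5 to 8, while the smaller responses numbered 4 to 6 at 1 h and 3 to 5 at 4 h. The lowest of these came without kinase-dead 1 h replicate 1 for the 1 h count and without any 4 h array for the smaller responses at 4 h, and the 4 h count was 8 without either wild-type unstimulated array. Cxcl2, a neutrophil chemokine, had means of 0.9 units in unstimulated kinase-dead cells, 13.2 at 1 h and 136.1 at 4 h, and of 3.7, 3926.8 and 4684.7 units in wild-type cells. Outside the stimulated wild-type arrays it exceeded 25.5 units only in kinase-dead cells at 4 h, so no fold is given. Lif, a cytokine of the interleukin-6 family, had means of 69.3, 97.5 and 163.5 units in kinase-dead cells and 126.3, 682.8 and 2266.8 units in wild-type cells. Ccl2 and Cxcl1, chemokines for monocytes and neutrophils, had 4 h rises of 4.54 and 5.01 in kinase-dead cells and 5.35 and 6.65 in wild-type cells (limma adjusted p from 6.836e-13 to 9.518e-10). Cxcl1 read 22.8 and 11.7 in unstimulated kinase-dead cells, both under the 25.5 units of the filter. Its differences from those arrays are imprecise, and the kinase-dead 4 h rise ran from 4.06 to 5.50 over the alternatives. The 4 h response difference was called for Cxcl1 (-1.64, limma adjusted p = 0.0198) but not for Ccl2. That Cxcl1 call held in 13 of the 22 alternatives, over which the difference ran from -2.11 to -1.32. It was lost without wild-type unstimulated replicate 2, kinase-dead unstimulated replicate 1 or any 4 h array. Without stimulation 7 of the 12 were called, all lower in kinase-dead cells, where 10.8% of all probe sets were called. Among them were Ccl2 (-1.35) and Cxcl1 (-1.31), the latter from kinase-dead arrays under the filter.

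Of 12 listed stem-loop targets of Zc3h12a 7 were tested, and the list shares 3 entries with the AU-rich list (Il6, Ptgs2 and Tnf). Il6, Tnf and Lcn2, 3 of the 7, reached the filter only on stimulated wild-type arrays. The filter thus favoured a difference there, and the counts are a description. At 1 h 2 were called in kinase-dead cells (median log2 difference 0.09), where 2.35% of all probe sets were, and 3 in wild-type cells (median 0.53), where 6.65% were, all higher. At 4 h 1 was called in kinase-dead cells (median 0.45), where 0.406% of all probe sets were, and 5 in wild-type cells (median 1.35), where 7.52% were, all higher. The medians of all probe sets lay between -0.08 and 0.01. Leaving out 1 array, the kinase-dead counts ranged from 1 to 3 at both times, and the wild-type counts from 2 to 4 at 1 h and from 4 to 6 at 4 h. Il6, the cytokine in which Zc3h12a action is best known, had means of 8.55, 19.5 and 22.4 units without stimulation, at 1 h and at 4 h in kinase-dead cells. In wild-type cells the means were 11, 132.5 and 1611.9 units. No kinase-dead array reached the 25.5 units of the filter, nor did the unstimulated wild-type arrays, so no fold is given. Nfkbiz, an inducible NF-kB cofactor, had means of 217.6, 432.6 and 1549.8 units in kinase-dead cells and 273.6, 4229.6 and 3109.4 units in wild-type cells. Lcn2, an iron-carrier-binding acute phase protein, read at most 9.8 units outside wild-type cells at 4 h, where it was 190.2 and 167.5, and it passed the filter only through those arrays. Tfrc, the transferrin receptor, rose by 0.71 ± 0.120 in wild-type cells at 4 h (limma adjusted p = 0.00109).

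Deadenylation genes were called in both directions at 1 h. Of 18 tested deadenylation genes 3 were called at 1 h in kinase-dead cells (1 higher, 2 lower), where 2.35% of all probe sets were, and 4 in wild-type cells (2 higher, 2 lower), where 6.65% were. The medians, over genes that went both ways, were -0.06 and 0.00. Leaving out 1 array, these counts ranged from 1 to 3 in kinase-dead cells and from 2 to 5 in wild-type cells. The kinase-dead count was 1 without wild-type 1 h replicate 2, kinase-dead unstimulated replicate 1, or any kinase-dead 1 h or 4 h array, and the wild-type count was 2 without wild-type 1 h replicate 2. At 4 h 3 were called in wild-type cells, where 7.52% of all probe sets were: Btg1 and Btg2 higher and Tob1 lower, with 1 left without wild-type 4 h replicate 1. Btg2, which links CCR4-NOT to the poly(A)-binding protein, gave the largest of these. Its signal at 1 h was 577.9 and 496.2 in kinase-dead cells, against 144.4 and 175 without stimulation, and 1847.9 and 1876.9 in wild-type cells, against 243 and 234.7. The rise was 1.70 ± 0.129 in kinase-dead and 2.92 ± 0.129 in wild-type cells, and the response was smaller in kinase-dead cells (difference -1.22 ± 0.182, limma adjusted p = 0.00255). Its relative Btg1 rose by 0.44 ± 0.0869 at 1 h in wild-type cells (limma adjusted p = 0.00467). Tob2, a further adaptor, measured by a probe set of a kind that can also detect other transcripts, fell by 0.40 in wild-type cells at 1 h (difference -0.40, limma adjusted p = 0.00467), a call lost without wild-type 1 h replicate 2 (adjusted p = 0.0671). In kinase-dead cells it had a 1 h difference of -0.34 (limma adjusted p = 0.0321), lost without any of the 6 kinase-dead arrays or wild-type 1 h replicate 2 (adjusted p up to 0.242). Cnot3, a CCR4-NOT subunit, had a 1 h difference of -0.91 in wild-type cells (limma adjusted p = 0.0299), lost without wild-type unstimulated replicate 2 or either wild-type 1 h array (adjusted p up to 0.206).

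Of 18 tested genes of decapping and decay from the 5' end, 1 was called at 1 h in kinase-dead cells, where 2.35% of all probe sets were, and 2 in wild-type cells, where 6.65% were, all lower. Dcp1a, a decapping cofactor, had 1 h differences of -0.58 in kinase-dead cells (limma adjusted p = 0.0414) and -0.57 in wild-type cells (limma adjusted p = 0.0226). The kinase-dead call was lost without any of 7 arrays (adjusted p up to 0.350): both wild-type 1 h, both kinase-dead unstimulated and both kinase-dead 4 h arrays, and kinase-dead 1 h replicate 1. The wild-type call was lost without wild-type unstimulated replicate 2 or either wild-type 1 h array (adjusted p up to 0.163). Edc3, an enhancer of decapping, had -0.996 in wild-type cells (limma adjusted p = 0.0232), lost without wild-type unstimulated replicate 1 or 1 h replicate 2 (adjusted p up to 0.234). Of 15 tested exosome and Ski complex genes 2 were called at 1 h in wild-type cells, both lower, where 6.65% of all probe sets were. With so few called of 18 and 15, nothing is read from either list. The exosome genes were Exosc4, a subunit of the exosome ring (-0.58 ± 0.104, limma adjusted p = 0.00220), and the exosome nuclease Dis3 (-0.98, limma adjusted p = 0.0187). The Dis3 call was lost without wild-type unstimulated replicate 1 or 1 h replicate 1 (adjusted p up to 0.235). At 4 h limma called none of these 33 genes in either genotype. At an unadjusted p under 0.05 it gave 1 decapping gene and 0 exosome genes in kinase-dead cells, and 3 decapping and 4 exosome genes in wild-type cells.

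Of 15 tested other regulators of mRNA stability, 1 was called at 1 h in kinase-dead cells, where 2.35% of all probe sets were called, and 1 in wild-type cells, where 6.65% were, both higher. At 4 h 2 were called in wild-type cells, where 7.52% of all probe sets were called. They were Rc3h1 and Zc3h12c, both higher. In wild-type cells at 1 h that share is close to the one over all probe sets. In kinase-dead cells the 1 h call was Ybx1, an RNA-binding protein, at 0.45 (limma adjusted p = 0.0442). It was lost without any of 9 arrays (adjusted p up to 0.397), all but both wild-type unstimulated arrays and kinase-dead unstimulated replicate 1. In wild-type cells the 1 h call was Elavl1, which encodes the stabilising protein HuR, at 0.41 ± 0.0984 (limma adjusted p = 0.0173). It was lost without wild-type unstimulated replicate 1 or either wild-type 1 h array (adjusted p up to 0.115). Zc3h12c, a relative of Zc3h12a, was called at 4 h in wild-type cells at 0.93 ± 0.225 (limma adjusted p = 0.0164), lost without wild-type unstimulated replicate 2 or either wild-type 4 h array (adjusted p up to 0.108).

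Of 19 tested genes for kinases, phosphatases and other proteins that act on the members, 1 was called at 1 h in kinase-dead cells, where 2.35% of all probe sets were called, and 1 in wild-type cells, where 6.65% were, both higher. At 4 h 2 were called in wild-type cells, where 7.52% of all probe sets were called, both higher, and the wild-type shares are near those over all probe sets. Comparing kinase-dead with wild-type cells, 3 were called at 1 h, where 10.5% of all probe sets were, and 3 at 4 h, where 16.7% were, all lower in kinase-dead cells. The 4 h share is near that over all probe sets, and with 3 of 19 called nothing is read from the 1 h share. The genes were Map2k3 and Malt1 at both times, Dusp1 at 1 h and Tank at 4 h. Under the 10 other settings the counts ran from 1 to 4 at 1 h and from 2 to 7 at 4 h. The 1 h calls of Malt1 and Dusp1 were lost without wild-type 1 h replicate 2 or kinase-dead 1 h replicate 1. The 4 h call of Malt1 was lost without wild-type 4 h replicate 2 or kinase-dead 4 h replicate 1. For Tank the 4 h difference was -0.39 (limma adjusted p = 0.0404), and from -0.52 to -0.25 over the alternatives. Its call was lost without any 1 h array, either kinase-dead 4 h array or wild-type 4 h replicate 2. The 1 h gene was Dusp1 in both, the phosphatase that ends signalling by p38, the kinase pathway that controls Zfp36 protein. It rose by 1.23 ± 0.135 in kinase-dead cells (limma adjusted p = 7.681e-05) and by 1.74 ± 0.135 in wild-type cells (limma adjusted p = 2.038e-07). For no gene of this list, Dusp1 included, was a difference between the genotypes' responses called at 1 h or 4 h. At an unadjusted p under 0.05 limma gave 2 such genes at 1 h and 4 at 4 h. At 4 h Tank, an adaptor known to join Zc3h12a in a complex with the ubiquitin protease Usp10, rose by 0.82 ± 0.125 (limma adjusted p = 0.000350), and Malt1 rose by 1.21 ± 0.226 (limma adjusted p = 0.00242), in wild-type cells. In the deadenylation, decapping, exosome, stability and modifier lists limma called no gene at 4 h in kinase-dead cells. At an unadjusted p under 0.05 it gave 5, 1, 0, 7 and 2 genes of those lists.

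**Figure D5:**
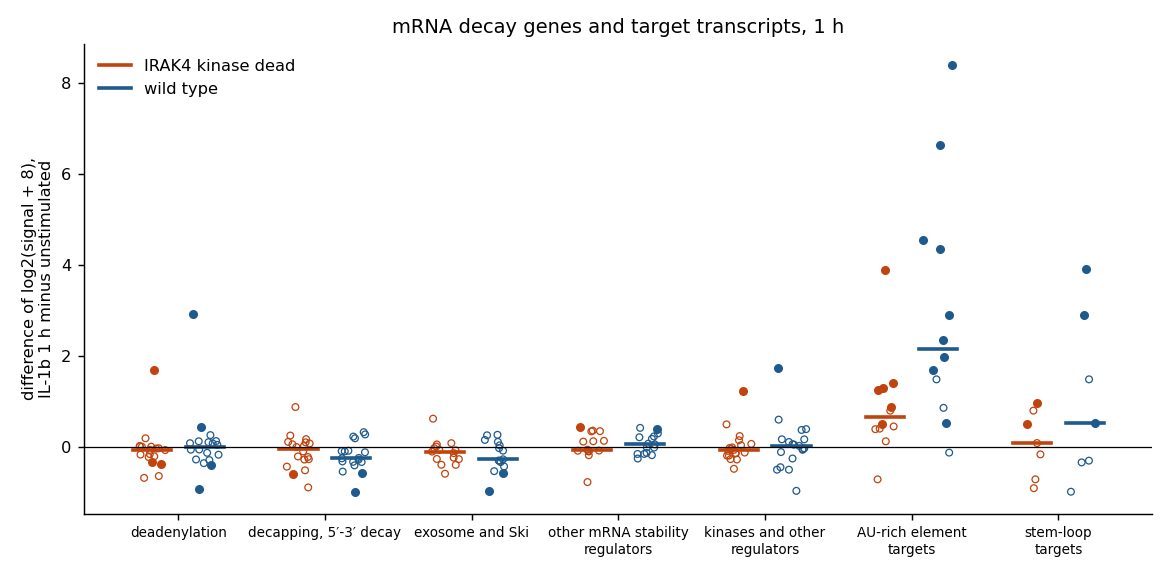
Differences in log2(signal + 8) between IL-1b at 1 h and unstimulated cells for each tested gene of the 7 lists, with kinase-dead cells left of wild-type cells and a line at each median. The medians of the AU-rich element targets were 0.65 in kinase-dead and 2.17 in wild-type cells, and those of the deadenylation genes were -0.06 and 0.00.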

How the data were processed

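Total RNA was labelled by the NuGEN Ovation protocol for 12 single-colour arrays, per the labels' protocols. The deposited values are MAS5 signal intensities, 1 linear value per probe set and array, per the submitters' processing notes. The version is not given in the sources used here. Scaling by the authors to a mean of 150 after trimming 2% from each end was read from the values. Genes were named from the platform annotation, with probe sets of 1 symbol, and promoters from RefSeq tables of GRCm38.p6.

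Signals were analysed as log2(signal + 8) for the 27086 probe sets that reached 25.5 (the median over the table) on 2 or more arrays. A linear model with a mean for each of the 6 groups, leaving 6 residual degrees of freedom, was fitted in limma 3.58.1 under R 4.3.3. Variances were moderated by eBayes with its trend option, and the model was tested in 11 comparisons, with two-sided p-values adjusted by Benjamini-Hochberg over all probe sets. The fit was tested on simulated data. For wild-type 1 h against unstimulated cells it recovered 57.5% of log2 changes of 1 and 90% of those of 2. For the response difference at 1 h it recovered 28.5% and 73.5%. A response difference that was not called is thus not shown to be absent. Tables and figures used Python 3.11.15, pandas 2.3.3 and matplotlib 3.10.9. No depth applies to arrays, and their number limits the precision.

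The members, the 7 gene lists (121 entries, of which 115 matched a probe set and 104 were tested) and the 5 marker lists were chosen with earlier results of these data known. The brightest probe set stood for each gene of a list. Named were all member probe sets, up to 4 called genes of each list with the smallest adjusted p, and the 5 genes most like each member; the text leaves out Dcp2 and Tia1, called only between 4 h and 1 h. The alternatives were 10 other settings and 12 fits without 1 array. Same-numbered arrays did not deviate together: over 15 pairs of groups the correlation of deviations from the group means was -0.032 to 0.073, none over 0.1, so the numbers were not taken to pair the arrays.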

Additional observations from a re-analysis of the deposited data

Results flagged for a closer look

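For 3 results the kinase-dead and wild-type responses to IL-1b differed by a test of the difference itself in limma. The response of Zc3h12a was smaller in kinase-dead cells at 1 h (difference of responses -3.86 on the log2 scale, adjusted p = 0.00124) and at 4 h (-3.01, adjusted p = 0.00519). The response of Zfp36 was smaller in kinase-dead cells at 1 h (-1.996, adjusted p = 9.483e-05). In each case all responses computed from pairs of kinase-dead arrays lay below all those from wild-type arrays. With 2 arrays per group such separation says little. The responses also separated where no difference of responses was called, as for Zfp36l2 (1437626_at) at 1 h (limma adjusted p = 0.825). Macrophage and neural marker sums, the actin ratio in unstimulated cells and the Gapdh ratio at 1 h and 4 h also differed between the genotypes. Their part in the differences of response was not tested.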

How the results depend on the processing

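Most results kept their call. Of the 25 calls on member probe sets 18 held in all 12 fits without 1 array and 7 did not, and no call changed direction. Over all members and comparisons the fits without 1 array left 1008 results on the same side of the threshold, ended a call 35 times and added one 13 times. For the other alternatives these counts were 788, 17 and 9. Without a variance trend the number of member probe sets called was 0 for kinase-dead 4 h against unstimulated cells (2 as reported), 0 for kinase-dead 4 h against 1 h (3 as reported), 1 for kinase-dead against wild-type unstimulated cells (3 as reported), 1 for the response difference at 1 h (2 as reported) and 0 for that at 4 h (1 as reported). At an unadjusted p under 0.05 that limma fit gave 5 for kinase-dead 4 h against unstimulated cells, 3 for 4 h against 1 h and 1 for the response difference at 4 h. For kinase-dead 4 h against unstimulated cells it was also 1 without the filter and 1 with 1 probe set per gene. Fitting the 2 compared groups alone gave 1 for unstimulated cells. Without 1 array the counts ranged from 0 to 4 for kinase-dead 4 h (4 to 6 at an unadjusted p under 0.05 in limma) and from 1 to 2 for kinase-dead 1 h against unstimulated cells, from 1 to 3 for kinase-dead 4 h against 1 h, and from 1 to 3 for kinase-dead against wild-type unstimulated cells. They ranged from 3 to 4 for wild-type 1 h, from 2 to 3 for wild-type 4 h, from 2 to 3 for the genotypes at 4 h and from 2 to 3 for the response difference at 1 h. The other 3 counts did not change.

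With the replicate number as a block, each count of member probe sets was as reported (4 for wild-type 1 h, 2 for the response difference at 1 h), and the block changed no call on a member. Over the whole table the number of called probe sets varied more. Kinase-dead 4 h against unstimulated cells had 110 calls, with 24 to 332 under other settings and 46 to 391 without 1 array, and kinase-dead 1 h had 637, with 64 to 924 and 170 to 1055. For the 112 calls on named list genes, an alternative chosen after seeing the data, 75 held in all fits without 1 array and 37 did not. Signals near the 25.5 units of the filter, as for Zc3h12a in unstimulated cells, limit the precision of fold changes there.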
